A study of Homo sapiens with 8 samples.

Results

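The 73 genes described here carry the symbols of mitochondrial ribosomal proteins, MRPL for the large and MRPS for the small subunit of the ribosome inside mitochondria. They were taken by symbol, as MRPL or MRPS followed by a number and at most 1 letter, in the transcript lists deposited for 8 RNA-seq libraries. The rule gave 46 MRPL and 27 MRPS genes of 23578 named genes, and all 73 reached the mean of 1 FPKM (fragments counted per kilobase of transcript and per depth of library) that put 11383 genes into the tests. The rule reads symbols alone, although the family was picked with earlier results of these data known. MRPL55, MRPS24 and MRPS6 have no symbol of this kind in the lists and are not among the 73.

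The libraries come from K562, a human leukaemia line with erythroid features, carrying a doxycycline-inducible SF3B1 transgene, in 4 groups of 2 replicates. K700E_induced cells carried SF3B1-K700E and received doxycycline at 1 ug/ml for 48 h, and K700E_uninduced cells carried the same transgene without doxycycline. WT_induced cells carried wild-type SF3B1 and received the same doxycycline dose and time, and WT_uninduced cells carried the wild-type transgene without it. All 4 groups were K562 cells grown with 10% serum and the labels report no change to the cells' own SF3B1 gene. The labels do not say whether each line is a clone, and they do not say that replicates were separate cultures. The p-values therefore measure the spread between these libraries, which may be technical. Total RNA was depleted of ribosomal RNA with RNase H before sequencing.

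The mitochondrial ribosome translates the few proteins encoded by mitochondrial DNA, all of them subunits of the oxidative phosphorylation machinery. Its RNAs come from mitochondrial DNA, while its proteins are encoded in the nucleus, made in the cytosol and imported. Part of them descend from the proteins of the bacterial ribosome, and part were added during the evolution of mitochondria. Erythroid cells depend on mitochondria for haem synthesis, and K562 cells keep an active respiratory chain. SF3B1 is the component of the U2 snRNP that holds the intron branch point, and the K700E substitution is known for directing splicing to acceptor sites upstream of the usual one.

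SF3B1 itself had 28.96 and 39.4 FPKM in K700E_induced, 33.6 and 31.03 FPKM in K700E_uninduced, 36.9 and 27.2 FPKM in WT_induced and 38.1 and 31.7 FPKM in WT_uninduced, so that its summed level overlapped between induced and uninduced libraries of both lines (limma adjusted p = 1 for K700E and 1 for WT induction). The summed FPKM cannot tell the transgene from the cell's own gene. Depth can be read only from coverage per FPKM in the deposited lists, 3.3 to 4.79 per library. All 10 erythroid markers passed the level filter, and they summed to 7013 to 10281 FPKM in K700E_induced, 8665 to 13637 FPKM in K700E_uninduced, 6191 to 6335 FPKM in WT_induced and 6589 to 6809 FPKM in WT_uninduced. CD14, MPO and MS4A1, which mark monocytes, granulocytes and B cells, were listed at 0 in all 8 libraries. The 5 myeloid markers summed to 10.8 to 12.2 FPKM in K700E_induced, against 38.1 to 41.0 FPKM in K700E_uninduced, 35.8 to 53.8 FPKM in WT_induced and 35.1 to 59.8 FPKM in WT_uninduced. The 6 stromal and epithelial markers, among them KRT8, KRT18 and VIM, summed to 653 to 731 FPKM in K700E_induced, against 1167 to 1404 FPKM in K700E_uninduced, 529 to 726 FPKM in WT_induced and 553 to 852 FPKM in WT_uninduced. The 5 lymphoid markers summed to 10.001 to 10.4 FPKM in K700E_induced, against 22.2 to 61.6 FPKM in K700E_uninduced, 8.35 to 23.3 FPKM in WT_induced and 25.7 to 38.5 FPKM in WT_uninduced. Their part in the values of the mitoribosomal genes was not tested. A lower value in a bulk library can mean less RNA per cell or fewer cells with that RNA, which cannot be told apart here.

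K562 cells expressed the mitoribosomal genes at levels above the middle of the transcriptome. The median of the 73 mean levels was 29.5 FPKM, 29.1 FPKM for MRPL and 32.8 FPKM for MRPS genes, beside 11.7 FPKM for all genes tested, and 67 of the 73 lay above that all-gene median. The median member stood at percentile 76.9 of the genes tested. Levels per gene ran from 5.18 FPKM for MRPL22 to 136 FPKM for MRPL41, with quartiles at 21 and 55.8 FPKM. Gene levels here are per length of transcript and scaled between libraries.

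**Figure D1:**
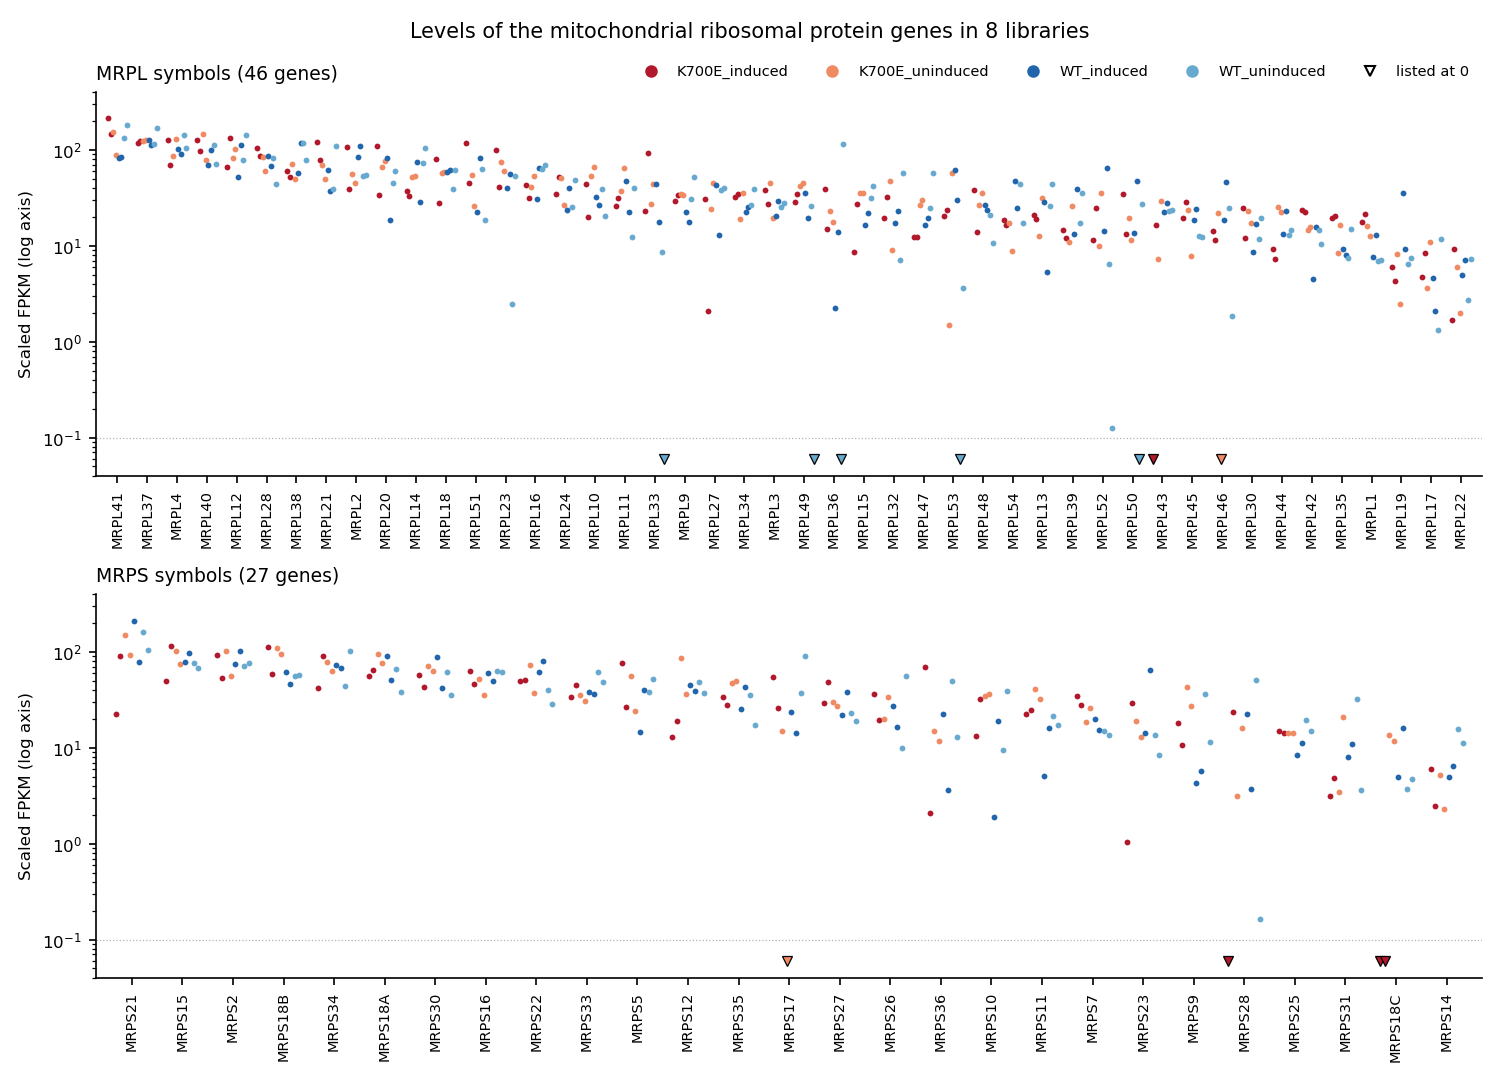
Level of each of the 73 genes in each of the 8 libraries (scaled FPKM, log axis), MRPL above and MRPS below, ordered by mean; each point is 1 library coloured by group, and triangles mark libraries that list the gene at 0. Means run from 136 FPKM (MRPL41) to 5.18 FPKM (MRPL22), and 11 triangles mark the values listed at 0.

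Of the large-subunit genes, MRPL41, MRPL37 and MRPL4 were the highest by mean. MRPL41, a mitochondria-specific protein, had 218 and 146 FPKM in K700E_induced, 153 and 89.7 FPKM in K700E_uninduced, 83.3 and 84.96 FPKM in WT_induced and 132 and 182 FPKM in WT_uninduced. MRPL37 had 117 and 123 FPKM in K700E_induced, 125 and 127 FPKM in K700E_uninduced, 128 and 112 FPKM in WT_induced and 114 and 169 FPKM in WT_uninduced, a within-group SD of 0.21 on the log2 scale that is among the 3 smallest of the 73. MRPL4, whose bacterial homologue lines the tunnel through which the new protein leaves, had 127 and 70.6 FPKM in K700E_induced, 85.9 and 131 FPKM in K700E_uninduced, 102 and 90.4 FPKM in WT_induced and 144 and 104 FPKM in WT_uninduced. In MRPL37 and MRPL4 the 4 groups overlapped in every pairing except that both K700E_induced values of MRPL37 lay below both K700E_uninduced values, and both WT_induced values of MRPL4 below both WT_uninduced values.

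The lowest large-subunit genes were MRPL22 (5.18 FPKM on average), MRPL17 (5.97 FPKM) and MRPL19 (9.96 FPKM), homologues of bacterial proteins. MRPL22 had 1.70 and 9.37 FPKM in K700E_induced, 6.07 and 1.98 FPKM in K700E_uninduced, 5.02 and 7.18 FPKM in WT_induced and 2.71 and 7.37 FPKM in WT_uninduced. MRPL17 had 4.69 and 8.41 FPKM in K700E_induced, 3.68 and 10.98 FPKM in K700E_uninduced, 4.67 and 2.11 FPKM in WT_induced and 1.31 and 11.9 FPKM in WT_uninduced. At these levels replicates of 1 group were far apart, as in WT_uninduced for MRPL17. The groups overlapped in all pairings for MRPL22, and for MRPL17 in all but K700E_induced against WT_induced.

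Of the genes with small-subunit symbols, MRPS21 (114 FPKM on average), MRPS15 (82.8 FPKM) and MRPS2 (78.5 FPKM) were the highest. MRPS21 had 22.7 and 89.99 FPKM in K700E_induced, 149 and 92.1 FPKM in K700E_uninduced, 211 and 78.3 FPKM in WT_induced and 161 and 106 FPKM in WT_uninduced. MRPS15, which in bacteria is a primary binder of the small ribosomal RNA, had 50.3 and 114 FPKM in K700E_induced, 101 and 75.4 FPKM in K700E_uninduced, 79.1 and 96.8 FPKM in WT_induced and 76.4 and 68.8 FPKM in WT_uninduced. MRPS2 had 92.5 and 53.3 FPKM in K700E_induced, 103 and 55.9 FPKM in K700E_uninduced, 74.4 and 101 FPKM in WT_induced and 71.5 and 76.7 FPKM in WT_uninduced. The lowest were MRPS14 (6.80 FPKM), MRPS18C (6.86 FPKM) and MRPS31 (10.9 FPKM). MRPS31 had 3.12 and 4.81 FPKM in K700E_induced, 3.46 and 21.1 FPKM in K700E_uninduced, 7.94 and 10.98 FPKM in WT_induced and 32.5 and 3.59 FPKM in WT_uninduced, with replicates far apart in K700E_uninduced and WT_uninduced.

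Symbols do not always give the subunit. MRPS18A and MRPS30 are named after the small subunit, but their proteins lie in the large one. MRPS18A had 56.2 and 65.4 FPKM in K700E_induced, 95.9 and 77.4 FPKM in K700E_uninduced, 91.2 and 50.5 FPKM in WT_induced and 65.9 and 38.1 FPKM in WT_uninduced. MRPS30 had 57.5 and 43.1 FPKM in K700E_induced, 70.7 and 63.8 FPKM in K700E_uninduced, 87.8 and 41.9 FPKM in WT_induced and 61.9 and 35.9 FPKM in WT_uninduced. Both genes had higher values in each K700E_uninduced library than in both K700E_induced libraries and both WT_uninduced libraries. These sums include assembled forms listed in 1 library only, of 641 nt for MRPS30 and 508 nt for MRPS18A. The MRPS30 reference transcript had 70.7 and 32.3 FPKM in K700E_uninduced, which overlap both other groups. That of MRPS18A had 58.1 and 77.4 FPKM in K700E_uninduced. These lie above 48.8 and 41.9 FPKM in K700E_induced but overlap 65.9 and 38.1 FPKM in WT_uninduced. MRPS36 is now named KGD4 and its protein is a component of the 2-oxoglutarate dehydrogenase complex of the citric acid cycle. It had 69.7 and 2.11 FPKM in K700E_induced, 14.97 and 11.8 FPKM in K700E_uninduced, 22.5 and 3.61 FPKM in WT_induced and 50.01 and 12.9 FPKM in WT_uninduced, with replicates far apart in K700E_induced, WT_induced and WT_uninduced and groups that overlapped in every comparison.

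MRPS18A, MRPS18B and MRPS18C are 3 paralogues of 1 bacterial small-subunit protein. MRPS18B, the most abundant of them, had 114 and 58.2 FPKM in K700E_induced, 111 and 94.6 FPKM in K700E_uninduced, 62.3 and 46.1 FPKM in WT_induced and 55.9 and 57.4 FPKM in WT_uninduced. Its K700E_uninduced values lay above both WT_uninduced values (log2 fold change 0.85, SE 0.38, limma adjusted p = 0.971). MRPS18C, the paralogue in the bacterial position of the small subunit, was listed at 0 in both K700E_induced libraries and had 13.6 and 11.7 FPKM in K700E_uninduced, 4.99 and 16.2 FPKM in WT_induced and 3.74 and 4.68 FPKM in WT_uninduced.

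Summed over each symbol group, MRPL levels overlapped between the groups in all comparisons. MRPL genes summed to 2208 and 1748 FPKM in K700E_induced, 1947 and 1883 FPKM in K700E_uninduced, 1736 and 1868 FPKM in WT_induced, and 1698 and 2142 FPKM in WT_uninduced. The MRPL means were 1978 ± 325 FPKM in K700E_induced and 1915 ± 45.5 FPKM in K700E_uninduced (SD, n = 2 each), and 1802 ± 93.6 FPKM in WT_induced and 1920 ± 314 FPKM in WT_uninduced (SD, n = 2 each). MRPS genes summed to 1009 and 997 FPKM in K700E_induced, 1336 and 1010.5 FPKM in K700E_uninduced, 1114 and 1016 FPKM in WT_induced, and 1162.5 and 1035 FPKM in WT_uninduced. The K700E_induced libraries held the lowest 2 MRPS sums of the 8, by a margin of 1009 against 1010.5 FPKM to the next library. With 2 libraries a group the smallest two-sided p that an exact permutation test could give is 0.333, so no test of these sums was run.

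**Figure D2:**
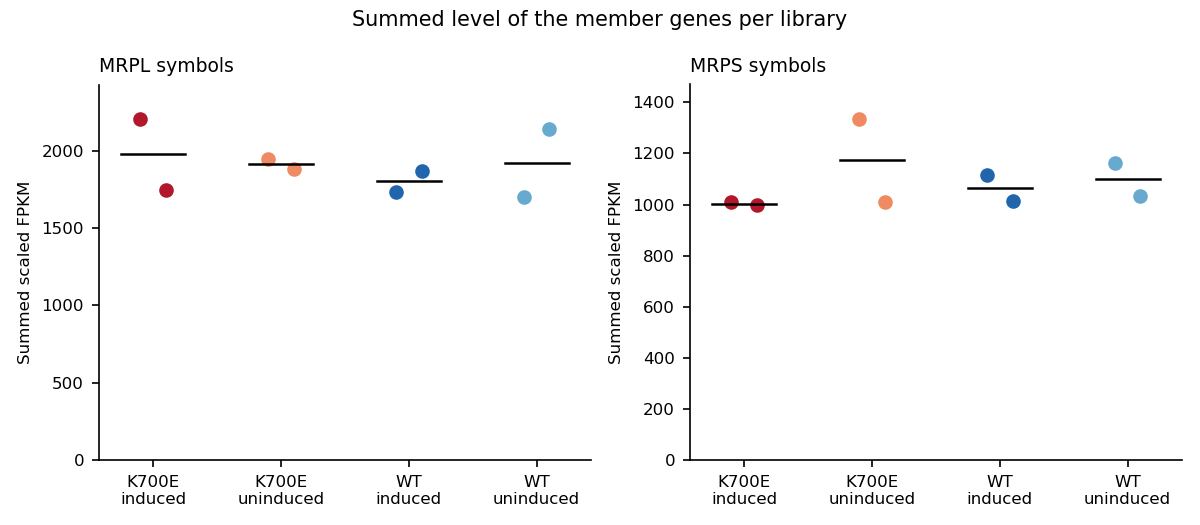
Summed scaled FPKM of the 46 MRPL genes (left) and the 27 MRPS genes (right) in each library, with points for libraries and bars for group means. MRPL sums lie between 1698 and 2208 FPKM and MRPS sums between 997 and 1336 FPKM, with both K700E_induced libraries at the low end of the MRPS panel.

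The median within-group SD between replicates was 0.587 on the log2 scale for members, beside 0.716 for all genes tested. The 22 members under 1000 nt had a median SD of 0.793, the 37 members from 1000 nt to under 2000 nt had 0.538, and the 14 members of 2000 nt or more had 0.6. The matching medians over all genes tested were 1.08, 0.941 and 0.653, largest for the shortest class in both sets. Among genes at 10 to 100 FPKM the 3 medians were 0.967, 0.538 and 0.56 for members and 1.04, 0.694 and 0.492 for all genes, so the members' median was below that of all genes in the shorter 2 classes and above it in the longest, which holds 9 members. MRPS25, MRPS33, MRPL37, MRPS7 and MRPS16 had the smallest spread (0.20 to 0.27), and MRPS28, MRPL36, MRPL46, MRPL50 and MRPL53 the largest (2.07 to 3.20). Those 5 genes are each listed at 0 in 1 library. The deposited 95% intervals do not cover this spread: of 187 pairs of replicates in which the same single transcript carried the gene, 150 (80.2%) had intervals that did not overlap, beside 80.5% over all genes tested.

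**Figure D3:**
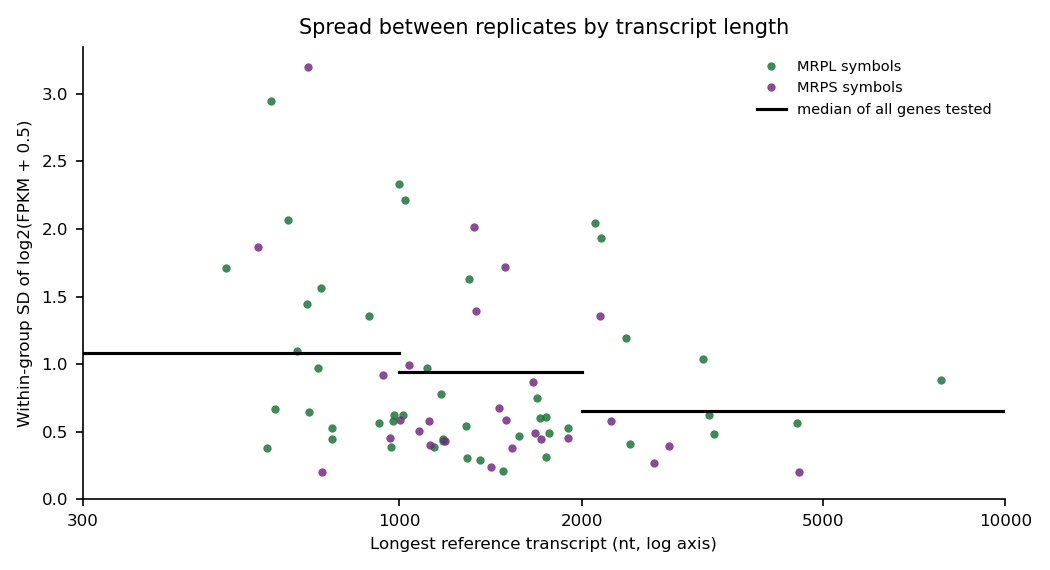
Within-group SD of log2(FPKM + 0.5) for each member against the length of its longest reference transcript (nt, log axis), MRPL and MRPS in separate colours, with lines for the medians of all genes tested in 3 length classes. Members under 1000 nt have a median SD of 0.793 and reach 3.20, and the 37 members from 1000 nt to under 2000 nt have a median of 0.538.

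Induction of SF3B1-K700E was compared with the uninduced K700E line. No member passed the threshold (limma adjusted p under 0.05), and 1 of the 11383 genes tested did (0.00879%). At an unadjusted p under 0.05 there were 5 members, 1 higher and 4 lower, beside 534 genes (4.69%) in all. Fold changes were above 0 for 32 and below 0 for 41 members, with a median log2 fold change of -0.07 beside -0.01 for all genes. MRPL genes split evenly, 23 and 23, with a median of 0.02, while 18 of 27 MRPS genes were below 0, with a median of -0.20. Over all genes tested, 48.4% were above 0. Values did not overlap between the 2 groups for 7 members that were higher and 18 that were lower, that is 9.59% and 24.7% of members, beside 16.1% and 17.8% of all genes.

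MRPS12, the homologue of the bacterial protein that lies at the decoding centre, had 12.97 and 18.8 FPKM in K700E_induced, against 86.2 and 36.1 FPKM in K700E_uninduced (log2 fold change -1.80, SE 0.48, limma adjusted p = 0.978). Both K700E_induced values lay below the other 6 libraries. MRPL44, whose protein has an RNase III-like fold and helps to assemble the large subunit, had 9.38 and 7.22 FPKM in K700E_induced, against 25.6 and 22.7 FPKM in K700E_uninduced (log2 fold change -1.49, SE 0.48, limma adjusted p = 0.978). Its K700E_induced libraries too were the 2 lowest of the 8. MRPL47 had 12.4 and 12.4 FPKM in K700E_induced, against 26.9 and 30.4 FPKM in K700E_uninduced (log2 fold change -1.17, SE 0.48, limma adjusted p = 1). MRPS21 had 22.7 and 89.99 FPKM in K700E_induced, against 149 and 92.1 FPKM in K700E_uninduced (log2 fold change -1.36), where 1 library, K700E_induced replicate 1, is low and the other lies just under the uninduced values. MRPS9 had 17.96 and 10.8 FPKM in K700E_induced, against 43.3 and 27.6 FPKM in K700E_uninduced (log2 fold change -1.28). MRPL27, whose bacterial homologue reaches towards the peptidyl transferase centre, had 30.97 and 2.08 FPKM in K700E_induced, against 24.3 and 45.2 FPKM in K700E_uninduced (log2 fold change -1.90). Its K700E_induced replicate 2 is low while replicate 1 lies between the uninduced values, and without replicate 2 the log2 fold change was -0.097.

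At the other end of the members above 0 in all libraries, MRPL51 had 119 and 45.2 FPKM in K700E_induced, against 55.4 and 25.9 FPKM in K700E_uninduced (log2 fold change 0.94) and MRPL45 had 19.5 and 28.5 FPKM in K700E_induced, against 23.9 and 7.81 FPKM in K700E_uninduced (log2 fold change 0.76), and for both genes the groups overlap. MRPL45 lies at the end of the exit tunnel, where the ribosome meets the inner membrane. MRPL21 had 120.4 and 78.8 FPKM in K700E_induced, against 69.1 and 49.6 FPKM in K700E_uninduced (log2 fold change 0.73, limma adjusted p = 1) and MRPL35 had 19.3 and 20.4 FPKM in K700E_induced, against 8.45 and 16.7 FPKM in K700E_uninduced (log2 fold change 0.72, limma adjusted p = 1). In both of these genes the K700E_induced values lay above the uninduced ones. In K700E_induced replicate 2, 37.9 FPKM of MRPL21 came from a 478-nt assembled form listed in that library only. The only MRPL21 reference transcript above 0 in K700E_induced had 104.8 and 40.9 FPKM there, which overlap the uninduced values. MRPL41 had 218 and 146 FPKM in K700E_induced, against 153 and 89.7 FPKM in K700E_uninduced (log2 fold change 0.61), with 1 uninduced value above the lower induced one. Without K700E_uninduced replicate 2 the MRPL45 value was -0.017. An adjusted p of 1 does not show that the groups are alike.

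Induction of wild-type SF3B1 with the same doxycycline treatment was compared with the uninduced WT line. No member passed the threshold in limma, and 1 gene of all tested did (0.00879%). At an unadjusted p under 0.05 there were 7 members, 4 higher and 3 lower, beside 487 genes (4.28%). Fold changes were above 0 for 33 and below 0 for 40 members, with a median of -0.08 on the log2 scale beside 0.01 for all genes. The groups did not overlap for 13 members that were higher and 13 that were lower, beside 15.1% and 14.0% of all genes. The 17 mitochondria-specific large-subunit genes had a median of 0.31 and the 30 with a bacterial homologue a median of -0.27, the 30 including MRPL55, which is named only through RefSeq. These medians were 0.06 and -0.02 on K700E induction, -0.23 and 0.32 between the induced lines and 0.13 and 0.06 between the uninduced lines. MRPL49, MRPL50 and MRPL53 of the 17, and MRPL33 and MRPL36 of the 30, are listed at 0 in a WT_uninduced library.

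MRPS9 had 4.31 and 5.75 FPKM in WT_induced, against 36.04 and 11.4 FPKM in WT_uninduced (log2 fold change -1.93, SE 0.64, limma adjusted p = 0.998), with both induced values under both uninduced ones. MRPS22, a mitochondria-specific protein of the small subunit, had 61.8 and 79.7 FPKM in WT_induced, against 40.2 and 28.9 FPKM in WT_uninduced (log2 fold change 1.03, SE 0.40, limma adjusted p = 0.998), with both induced values above. MRPL9 had 22.7 and 17.9 FPKM in WT_induced, against 31.2 and 52.8 FPKM in WT_uninduced (log2 fold change -0.99, SE 0.39) and MRPL41 had 83.3 and 84.96 FPKM in WT_induced, against 132 and 182 FPKM in WT_uninduced (log2 fold change -0.88, SE 0.35), and in both genes the induced values lay under the uninduced ones. MRPL52 had the highest fold change of members above 0 in all libraries, with 14.3 and 65.4 FPKM in WT_induced, against 6.52 and 0.126 FPKM in WT_uninduced (log2 fold change 3.90, SE 1.24, limma adjusted p = 0.998). Of its 65.4 FPKM in WT_induced replicate 2, 41.98 FPKM came from a 338-nt assembled form listed in that library only. Its 0.126 FPKM in WT_uninduced replicate 2 is less than the 0.5 FPKM added before the log. MRPL23, MRPS23 and MRPL19 followed, with log2 fold changes of 1.93, 1.49 and 1.32. MRPL23, a protein at the rim of the exit tunnel, had 40.2 and 56.8 FPKM in WT_induced, against 2.46 and 53.8 FPKM in WT_uninduced, and without WT_uninduced replicate 1 its log2 fold change was -0.17. MRPL19 had 35.4 and 9.17 FPKM in WT_induced, against 6.52 and 7.43 FPKM in WT_uninduced, and MRPS23 had 14.4 and 65.6 FPKM in WT_induced, against 13.5 and 8.43 FPKM in WT_uninduced. With reference transcripts alone the MRPS23 value was -0.41. The MRPL19 reference transcript had 5.06 and 9.17 FPKM in WT_induced, against 6.52 and 7.43 FPKM in WT_uninduced, which overlap. A 404-nt assembled form carried the rest in WT_induced replicate 1. In each of these 3 genes a single library stands far from the other 3.

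Among the lowest for WT induction of the members above 0 in all libraries, MRPS10 had 1.91 and 18.99 FPKM in WT_induced, against 9.39 and 39.05 FPKM in WT_uninduced (log2 fold change -1.53) and MRPL13 had 28.8 and 5.40 FPKM in WT_induced, against 26.01 and 44.3 FPKM in WT_uninduced (log2 fold change -1.39), with the groups overlapping. MRPS14, which sits in the head of the small subunit, had 5.01 and 6.44 FPKM in WT_induced, against 15.7 and 11.3 FPKM in WT_uninduced (log2 fold change -1.16, limma adjusted p = 0.998), with both induced values under both uninduced ones. MRPS36 had a log2 fold change of -1.42 (SE 1.49) on overlapping values, and of 0.0061 with reference transcripts alone.

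The 2 induced lines, which share the doxycycline treatment and differ in the transgene and in the line, were compared directly. No member passed the threshold in limma, beside 3 of the 11383 genes (0.0264%). At an unadjusted p under 0.05 there were 4 members, 2 higher and 2 lower in K700E_induced, beside 595 genes (5.23%). Fold changes were above 0 for 37 and below 0 for 36 members, and the median was 0.00 for members and for all genes. The groups did not overlap for 15 members that were higher and 11 that were lower in K700E_induced, beside 16.2% and 16.6% of all genes.

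MRPS12 had 12.97 and 18.8 FPKM in K700E_induced, against 45.2 and 39.5 FPKM in WT_induced (log2 fold change -1.41, SE 0.48, limma adjusted p = 0.897). MRPL41 had 218 and 146 FPKM in K700E_induced, against 83.3 and 84.96 FPKM in WT_induced (log2 fold change 1.08, SE 0.35, limma adjusted p = 0.897), and MRPS11, whose bacterial homologue lies on the platform of the small subunit, had 22.5 and 24.6 FPKM in K700E_induced, against 5.02 and 15.98 FPKM in WT_induced (log2 fold change 1.33, SE 0.56, limma adjusted p = 0.949). In all 3 genes the K700E_induced values lay to one side of the WT_induced values. In K700E_induced replicate 1, 13.3 FPKM of MRPS11 came from a 795-nt assembled form listed in that library only. Reference transcripts of MRPS11 had 9.18 and 24.6 FPKM in K700E_induced, against 5.02 and 15.98 FPKM in WT_induced, which overlap. MRPS9 had 17.96 and 10.8 FPKM in K700E_induced, against 4.31 and 5.75 FPKM in WT_induced (log2 fold change 1.40), MRPL42 had 23.5 and 22.8 FPKM in K700E_induced, against 4.48 and 15.6 FPKM in WT_induced (log2 fold change 1.40) and MRPL35 had 19.3 and 20.4 FPKM in K700E_induced, against 9.36 and 8.01 FPKM in WT_induced (log2 fold change 1.15), each again without overlap. MRPS10 had the highest fold change in this comparison among members above 0 in every library, 1.64, on overlapping values (13.3 and 32.4 FPKM in K700E_induced, against 1.91 and 18.99 FPKM in WT_induced). The lowest of the same members were MRPS23 (-2.20), MRPL19 (-1.73), MRPS21 (-1.49) and MRPL27 (-1.43) on the log2 scale. Without K700E_induced replicate 2 the MRPL27 value was 0.38. Of these 4, MRPL19 alone had groups that did not overlap, with 6.07 and 4.32 FPKM in K700E_induced, against 35.4 and 9.17 FPKM in WT_induced. In WT_induced replicate 1, 30.3 FPKM of MRPL19 came from a 404-nt assembled form listed in that library only. The MRPL19 reference transcript had 6.07 and 4.32 FPKM in K700E_induced, against 5.06 and 9.17 FPKM in WT_induced, which overlap.

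The uninduced lines differ by the transgene they carry and by line, with no doxycycline in either. No member and no gene passed the threshold in limma (0%), and at an unadjusted p under 0.05 there were 5 members, 3 higher and 2 lower in K700E_uninduced, beside 528 genes (4.64%). Fold changes were above 0 for 43 and below 0 for 30 members, with a median of 0.14 beside 0.02 for all genes. The median was 0.38 for the MRPS genes, of which 18 of 27 were above 0, and 0.10 for the MRPL genes. Over all genes tested, 51.4% were above 0. The K700E_uninduced libraries also enter the K700E induction comparison, so the MRPS counts of these comparisons are not separate results. The groups did not overlap for 18 members that were higher and 8 that were lower in K700E_uninduced, beside 16.9% and 15.7% of all genes.

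MRPL10 and MRPL11, which form the base of the stalk that binds the translation factors, had 53.1 and 65.8 FPKM in K700E_uninduced, against 38.9 and 20.5 FPKM in WT_uninduced for MRPL10 (log2 fold change 1.05, limma adjusted p = 0.971) and 37.3 and 64.6 FPKM in K700E_uninduced, against 12.4 and 39.8 FPKM in WT_uninduced for MRPL11 (log2 fold change 1.12). MRPL48 had 26.95 and 35.3 FPKM in K700E_uninduced, against 20.8 and 10.7 FPKM in WT_uninduced (log2 fold change 1.02). MRPL10 and MRPL48 did not overlap between lines, and MRPL11 did. Among members above 0 in all libraries, MRPL52 (3.21) and MRPL23 (2.42) had the highest log2 fold changes, with 9.85 and 35.8 FPKM in K700E_uninduced, against 6.52 and 0.126 FPKM in WT_uninduced for MRPL52 and 75.9 and 59.8 FPKM in K700E_uninduced, against 2.46 and 53.8 FPKM in WT_uninduced for MRPL23. At the low end, MRPS14 had 5.17 and 2.29 FPKM in K700E_uninduced, against 15.7 and 11.3 FPKM in WT_uninduced (log2 fold change -1.79, SE 0.73, limma adjusted p = 0.971) and MRPS33 had 35.3 and 30.98 FPKM in K700E_uninduced, against 61.5 and 48.9 FPKM in WT_uninduced (log2 fold change -0.72), both without overlap. MRPL54, MRPS36 and MRPL13 had log2 fold changes of -1.12, -0.92 and -0.74 on overlapping values. The MRPS36 value was 0.48 with reference transcripts alone and 0.040 without WT_uninduced replicate 1.

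The change on K700E induction was set against the change on WT induction by an interaction term. No member passed the threshold in limma, beside 2 of the genes tested (0.0176%). At an unadjusted p under 0.05 there were 6 members, 2 above and 4 below 0, beside 483 genes (4.24%). The median interaction was 0.04 for members and -0.05 for all genes. MRPS12 had an interaction of -1.78 (SE 0.67, limma adjusted p = 0.999), from a log2 fold change of -1.80 on K700E and -0.02 on WT induction. MRPL44 had -1.83 (SE 0.68), from -1.49 and 0.34. MRPL41 had 1.49 (SE 0.50), from 0.61 and -0.88. Among members above 0 in all libraries, MRPL52, MRPS23 and MRPL23 had the lowest interactions, -4.05, -2.74 and -1.997, and MRPS36, MRPL13, MRPS14 and MRPL21 the highest beside MRPL41, 1.39, 1.37, 1.31 and 1.17. The MRPL52 interaction includes WT_uninduced replicate 2, which lists the gene at 0.126 FPKM. The MRPL23 interaction was 0.10 without WT_uninduced replicate 1, and that of MRPS36 was -0.98 without K700E_induced replicate 1 and -1.27 with reference transcripts alone. MRPS18A (-0.94), MRPS18B (-0.25) and MRPS30 (-0.79) were below 0 with limma adjusted p = 1.

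**Figure D4:**
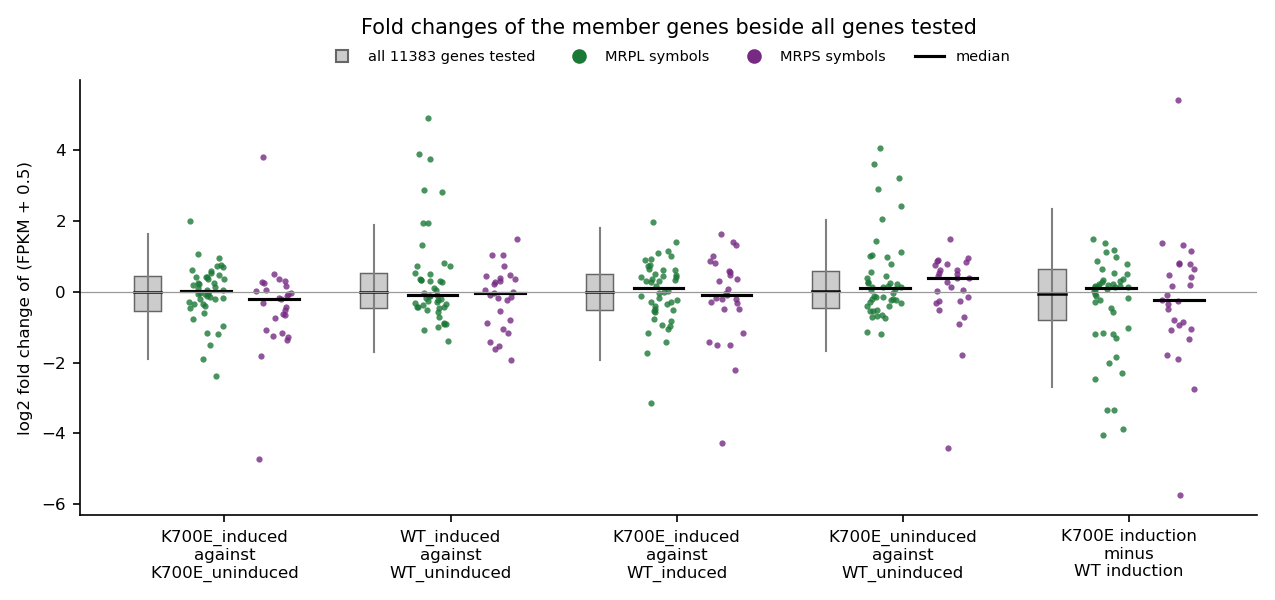
Log2 fold changes of the 46 MRPL and 27 MRPS genes in the 5 comparisons (log2 of FPKM + 0.5), with the distribution of all 11383 genes tested beside them (box, quartiles; whisker, 5th to 95th percentile; black bar, median). MRPL medians run from -0.10 to 0.11 and MRPS medians from -0.23 to 0.38, and the points beyond 3 in either direction belong to MRPL52 and to genes listed at 0 in 1 or 2 libraries.

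Members listed at 0 in a library had most of the fold changes beyond 3 on the log2 scale. Of the 73 members, 63 were above 0 in every library, 9 were listed at 0 in 1 library and MRPS18C in 2, so that 13.7% of members had a zero somewhere, beside 22.9% of genes tested. A transcript listed at 0 need not be without RNA. In both K700E_induced libraries the MRPS18C locus held assembled unspliced fragments of 192 to 201 nt, too short to be assigned, with up to 1287 FPKM in replicate 1 and 1481 FPKM in replicate 2, and FAM175A, whose exons overlap MRPS18C on the other strand, was above 0. Such fragments were looked for only in libraries that list a gene at 0, and whether other libraries hold them was not tested. No fold is given for MRPS18C against these zeros; its limma adjusted p was 0.905 for K700E induction, 0.362 between the induced lines and 0.947 for the interaction.

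Other members with a zero had it in 1 library of a group whose other replicate was above 0. MRPS17, a homologue of a bacterial primary RNA-binding protein, had 55.4 and 26.2 FPKM in K700E_induced, 14.99 and 0 FPKM in K700E_uninduced, 23.9 and 14.4 FPKM in WT_induced and 37.4 and 90.5 FPKM in WT_uninduced. MRPL33 had 23.2 and 93.5 FPKM in K700E_induced, 27.5 and 44.5 FPKM in K700E_uninduced, 43.99 and 17.7 FPKM in WT_induced and 8.54 and 0 FPKM in WT_uninduced, and the WT_uninduced library at 0 held an assembled fragment of 182 nt at 3190 FPKM in the MRPL33 locus. MRPL49 had 28.8 and 35.2 FPKM in K700E_induced, 42.5 and 45.3 FPKM in K700E_uninduced, 35.7 and 19.4 FPKM in WT_induced and 25.8 and 0 FPKM in WT_uninduced, where FAU and SYVN1 share its locus on the other strand. MRPL36 had 39.5 and 14.9 FPKM in K700E_induced, 23.3 and 17.6 FPKM in K700E_uninduced, 2.26 and 14.04 FPKM in WT_induced and 0 and 116 FPKM in WT_uninduced, with 2 spliced fragments of 270 and 281 nt in the library at 0. MRPL53 had 20.5 and 23.6 FPKM in K700E_induced, 1.49 and 58.2 FPKM in K700E_uninduced, 61.3 and 29.9 FPKM in WT_induced and 0 and 3.59 FPKM in WT_uninduced. MRPL50, MRPL43, MRPL46 and MRPS28 were at 0 in WT_uninduced replicate 1, K700E_induced replicate 1, K700E_uninduced replicate 2 and K700E_induced replicate 1. No unassigned fragment was listed in the locus of MRPS17, MRPL49, MRPL53, MRPL50, MRPL43, MRPL46 or MRPS28 in the library at 0.

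Most members are simple genes. In the reference set 50 of the 73 have 1 transcript and 23 have 2 or more. They are spread over 21 chromosomes, with at most 8 on 1 chromosome (chromosome 2). Assembled forms of 300 nt or more were assigned to 37 members, 58 forms in all, which carried 6.99% of the summed FPKM; 54 of the 58 appeared in 1 library only. Exons of 9 members (MRPL13, MRPL20, MRPL43, MRPL49, MRPL9, MRPS12, MRPS18C, MRPS25 and MRPS7) overlap a gene on the other strand, and the labels do not say that strand was used, so their reads may be shared. Genes of this family also have processed pseudogenes, and how reads that match both were treated is not given in the sources used here.

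Shares of transcripts within genes were tested for 93 transcripts of 41 members, among 24617 transcripts of 7642 genes. In limma, no transcript of a member, or of any other gene, passed the threshold (0% in each of the 5 comparisons). Before adjustment, p was under 0.05 for 6 of the 93 member transcripts in the K700E induction comparison (3.72% of all transcripts tested) and for 3 in that of WT induction (4.0%). The number was 8 for the induced lines (4.04%), 1 for the uninduced lines (3.82%) and 5 for the interaction (3.76%). Shares of transcripts of 1 gene depend on each other, so these are not separate results. MRPL21 and MRPS12 each count with 2 transcripts on K700E induction, as do MRPL24 and MRPS12 for the induced lines. The forms described next were singled out after their values were seen. Of 155 member transcripts above 0 in any library, 2 were above 0 in both K700E_induced libraries and in none of the other 6, and 3 were at 0 in both and above 0 in the other 6. Over the 35079 transcripts of tested genes these patterns occurred at 0.391% and 0.194%. For the other groups, 1 member transcript was above 0 in WT_uninduced alone (0.365% of all) and 1 was at 0 there alone (0.180%). No member transcript had either pattern in K700E_uninduced (0.368% and 0.125%) or WT_induced (0.405% and 0.148%).

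MRPL21, a homologue of a bacterial large-subunit protein, showed the smallest unadjusted p of the member shares on K700E induction. Its 2 reference transcripts differ by 13 nt at the end of exon 2 (chromosome 11), and the sequences across that junction are shown with the extra 13 bases in capitals (GENCODE 29 transcripts on GRCh38, as for the other junctions), because the libraries differ in which form they list.
MRPL21 longer exon 2: tctaccaggGTAATATCAAAATatatgttc
MRPL21 shorter exon 2: tctaccaggatatgttc
Transcripts with the longer exon 2 had 120.4 and 40.9 FPKM in K700E_induced, 0 and 0 FPKM in K700E_uninduced, 0 and 19.1 FPKM in WT_induced, and 0 and 0 FPKM in WT_uninduced. Transcripts with the shorter exon 2 had 0 and 37.9 FPKM in K700E_induced, 69.1 and 49.6 FPKM in K700E_uninduced, 61.6 and 18.2 FPKM in WT_induced, and 38.8 and 109.3 FPKM in WT_uninduced. The reference transcript with the shorter exon 2 was listed at 0 in both K700E_induced libraries, but in replicate 2 an assembled form used the same junction, so the shorter exon 2 was listed at 0 in replicate 1 only. The longer form was above 0 in both K700E_induced libraries, in 1 WT_induced library and in no uninduced library. The log2 ratio of the shorter reference transcript to the rest of the gene differed by -14.50 on K700E induction (SE 2.69, limma adjusted p = 0.748). The rest of the gene includes the assembled form with the shorter exon 2. This transcript was at 0 in both K700E_induced libraries, and the rest of the gene at 0 in both K700E_uninduced libraries. The size of the difference therefore depends on the 0.5 FPKM added to each side of the ratio.

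Of 3 MRPS12 reference transcripts (chromosome 19), 2 were above 0, and they start 246 nt apart. The upstream transcript had 12.97 and 18.8 FPKM in K700E_induced, 21.3 and 8.25 FPKM in K700E_uninduced, 21.2 and 0 FPKM in WT_induced, and 22.5 and 24.5 FPKM in WT_uninduced. The downstream one was at 0 in both K700E_induced libraries and had 64.9 and 27.8 FPKM in K700E_uninduced, 24.1 and 39.5 FPKM in WT_induced, and 26.5 and 12.9 FPKM in WT_uninduced. The upstream transcript overlapped between K700E_induced and K700E_uninduced and between K700E_induced and WT_induced, and the downstream one did not. Its share did not pass the threshold (log2 ratio -6.65, SE 2.50, limma adjusted p = 0.90 on K700E induction). SARS2, which encodes mitochondrial seryl-tRNA synthetase, overlaps MRPS12 on the other strand.

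MRPS18A has a reference transcript that skips a 70-nt exon (chromosome 6). The junctions are shown from the end of the exon before, in lower case, to the first bases of the next exon, in capitals.
MRPS18A with the exon: tggcccaccgagcagGTCTATTACCAAATC
MRPS18A without the exon: tggcccaccgagcagGTACCTGACGCGCTG
The skipping transcript had 7.37 and 7.70 FPKM in K700E_induced and was at 0 in the other 6 libraries, while the reference transcript with the exon had 48.8 and 41.9 FPKM in K700E_induced, against 58.1 and 77.4 FPKM in K700E_uninduced, 91.2 and 50.5 FPKM in WT_induced and 65.9 and 38.1 FPKM in WT_uninduced. Its share of MRPS18A was 13.1% in K700E_induced replicate 1 and 11.8% in replicate 2. Its mean share over all libraries, 3.11%, kept it out of the share test.

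MRPL38 had an assembled form of 917 nt that holds only the first 3 introns of the reference transcript. It had 20.99 and 18.6 FPKM in K700E_induced and was at 0 in the other 6 libraries. The full-length reference transcript had 17.9 and 34.2 FPKM in K700E_induced, against 71.7 and 25.4 FPKM in K700E_uninduced, 57.8 and 45.5 FPKM in WT_induced and 43.6 and 78.9 FPKM in WT_uninduced. Further assembled MRPL38 forms, each in a single library, had 22.3 to 75.4 FPKM in 4 of the 8 libraries. The share of the 917-nt form had a log2 ratio of 6.02 on K700E induction (SE 2.07, limma adjusted p = 0.90).

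MRPL33 has a 107-nt exon 3 that 1 of its 2 transcripts skips (chromosome 2), shown with the first bases after exon 2 in capitals.
MRPL33 with exon 3: caagagcaagtcaaaAAACATTCTGGTGAG
MRPL33 without exon 3: caagagcaagtcaaaTGAAACAAAGAGTCC
The transcript with exon 3 had 23.2 and 28.2 FPKM in K700E_induced, 27.5 and 35.1 FPKM in K700E_uninduced, 15.2 and 17.8 FPKM in WT_induced, and was at 0 in both WT_uninduced libraries. The transcript without it had 0 and 65.2 FPKM in K700E_induced, 0 and 9.35 FPKM in K700E_uninduced, 28.8 and 0 FPKM in WT_induced, and 8.54 and 0 FPKM in WT_uninduced. For MRPL52, a transcript was above 0 in the 2 WT_uninduced libraries only, at 4.12 and 0.126 FPKM. The MRPL2 reference transcript held 54.4% and 24.4% of the gene in WT_induced, against 100% in both WT_uninduced libraries, with a different assembled form carrying the rest in each WT_induced library. It held 100% in both K700E_induced libraries, against 100% and 68.2% in K700E_uninduced. By unadjusted p, the leading share differences on WT induction were those of the MRPL2 reference transcript (log2 ratio -7.45, limma adjusted p = 0.873) and an MRPL52 transcript (-6.46, limma adjusted p = 0.873). For the induced lines they were those of the shorter MRPL21 transcript (-11.06, limma adjusted p = 0.866) and the downstream MRPS12 transcript (-8.26). By unadjusted p, the same MRPS12 transcript came first in the interaction (-10.24, unadjusted p = 0.0162, limma adjusted p = 0.816) and an MRPL52 transcript in the uninduced lines (-5.77, unadjusted p = 0.0189, limma adjusted p = 0.911). Other member transcripts had larger ratios there.

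**Figure D5:**
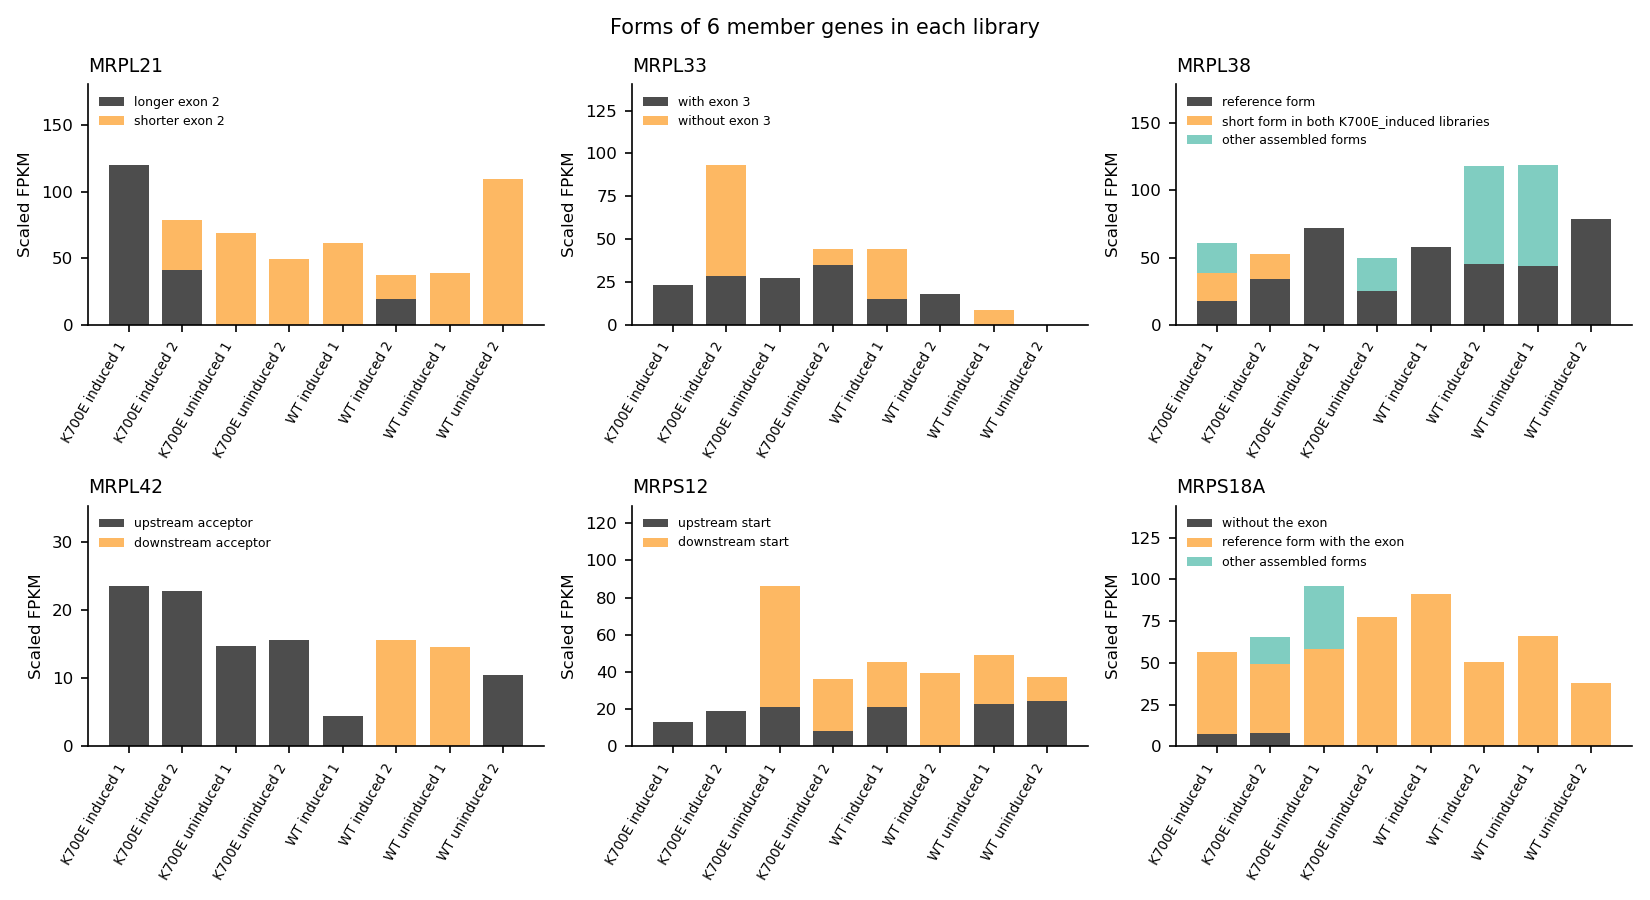
Scaled FPKM by transcript form in each of the 8 libraries for MRPL21, MRPL33, MRPL38, MRPL42, MRPS12 and MRPS18A, as stacked bars from 0. The K700E_induced bars show the longer exon 2 of MRPL21 at 120.4 and 40.9 FPKM, no downstream start of MRPS12, and the exon-skipping form of MRPS18A at 7.37 and 7.70 FPKM.

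Acceptor sites were searched because SF3B1-K700E is known for moving them. Among the members, 4 introns had a second acceptor within 100 nt of a reference acceptor and none of the alternative sites was used in both libraries of 1 group and in no other library. Of 5 MRPL42 reference transcripts (chromosome 12), 2 were above 0, and they differ by 3 nt, shown with the extra bases of the upstream site in capitals.
MRPL42 upstream acceptor: agccgtcaagCAGgagtagaaat
MRPL42 downstream acceptor: agccgtcaaggagtagaaat
The upstream site of MRPL42 had 23.5 and 22.8 FPKM in K700E_induced, 14.8 and 15.7 FPKM in K700E_uninduced, 4.48 and 0 FPKM in WT_induced, and 0 and 10.5 FPKM in WT_uninduced. The downstream site had 15.6 FPKM in WT_induced replicate 2 and 14.5 FPKM in WT_uninduced replicate 1 and was at 0 in the other 6 libraries, so each library listed 1 of the 2 sites. In MRPL52 the upstream of 2 sites 3 nt apart had 0 and 0 FPKM in K700E_induced, 7.77 and 5.58 FPKM in K700E_uninduced, 6.26 and 0 FPKM in WT_induced, and 4.12 and 0.126 FPKM in WT_uninduced. The downstream site of MRPL52 had 1.45 and 11.6 FPKM in K700E_induced, 2.09 and 5.21 FPKM in K700E_uninduced, and 0 in all 4 WT libraries.

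An assembled MRPS11 form ended 3 nt downstream of the reference acceptor, in K700E_uninduced replicate 1 and both WT_uninduced libraries, at 27.995, 15.03 and 17.2 FPKM. An assembled MRPS16 form ended 14 nt upstream of the reference acceptor, at 10.6 FPKM in K700E_uninduced replicate 2 only, beside 25.4 FPKM on the usual site in the same library. Introns absent from the reference numbered 18 in all, 3 and 0 of them in K700E_induced, 4 and 3 in K700E_uninduced, 2 and 3 in WT_induced, and 4 and 2 in WT_uninduced. Assembled transcripts of all kinds, assigned to a gene or not, numbered 27388 and 38948 in K700E_induced and 39801 and 34386 in K700E_uninduced. They numbered 45570 and 35683 in WT_induced, and 24926 and 39794 in WT_uninduced replicates 2 and 1. New introns were counted in members only, so no share over all genes stands beside these small numbers. Introns that joined a known donor to a new acceptor numbered 0 and 0 in K700E_induced, 2 and 1 in K700E_uninduced, 1 and 0 in WT_induced, and 1 and 1 in WT_uninduced. Introns with both sites new numbered 0 and 0 in K700E_induced, 0 and 1 in K700E_uninduced, 1 and 0 in WT_induced, and 1 and 0 in WT_uninduced.

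RefSeq promoter sequences on GRCh38.p14, from 250 bases before to 50 bases after the start, matched 65 of the 73 members. The ETS core motif CCGGAAG, read by factors such as GABPA on either strand, was found in 28 of the 65 (43.1%), beside 10.7% of all 27305 promoters and 21% of the promoters of genes tested. The motif of NRF1, a regulator of nuclear genes for mitochondrial proteins, searched as GCGCA and GCGC with any base between, was found in 7 (10.8%), beside 6.28% of all promoters and 12.7% of those of genes tested. Both motifs stood in 2 member promoters. A match is a description of letters, not of binding. Stretches upstream of the start in MRPL20 (chr1:1407314-1407357, minus strand) and MRPS34 (chr16:1773156-1773206, minus strand) are shown because they hold ETS matches, in capitals, outside any annotated exon.
MRPL20 promoter: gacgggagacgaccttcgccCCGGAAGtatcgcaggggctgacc
MRPS34 promoter: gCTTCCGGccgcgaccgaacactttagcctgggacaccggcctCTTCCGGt
MRPL20 had 110.0 and 34.1 FPKM in K700E_induced, 66.5 and 76.3 FPKM in K700E_uninduced, 81.8 and 18.5 FPKM in WT_induced and 45.4 and 60.7 FPKM in WT_uninduced. MRPS34 had 42.01 and 90.4 FPKM in K700E_induced, 77.9 and 62.7 FPKM in K700E_uninduced, 72.5 and 68.5 FPKM in WT_induced and 44.5 and 103 FPKM in WT_uninduced. The groups overlapped in all 4 pairings for both genes except that K700E_uninduced lay above WT_uninduced for MRPL20.

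Other genes of mitochondrial translation were counted by lists. No gene of these 4 lists passed the threshold in limma in these comparisons. Of their 52 genes tested, p before adjustment was under 0.05 for 5 in the K700E induction comparison (all genes 4.69%), 2 for WT induction (4.28%), 2 for the induced lines (5.23%), 2 for the uninduced lines (4.64%) and 4 for the interaction (4.24%). Of 7 mitoribosomal proteins under other symbols, 5 were below 0 on K700E induction (median -0.98), 1 on WT induction (median 0.24), 6 between the induced lines (median -0.76) and 1 between the uninduced lines (median 0.66), and all 7 were below 0 in the interaction (median -1.36). Over all genes tested, 48.4% were above 0 on K700E induction (median -0.01) and 48% in the interaction (median -0.05). The genes given next were chosen by level, and DAP3 and GADD45GIP1 are the 2 above 0 on K700E induction. AURKAIP1 had 172 and 94.5 FPKM in K700E_induced, 197 and 173 FPKM in K700E_uninduced, 246 and 173 FPKM in WT_induced and 155 and 208 FPKM in WT_uninduced. DAP3, a small-subunit GTPase also named for a role in cell death, had 79.7 and 48.1 FPKM in K700E_induced, 54.7 and 53.3 FPKM in K700E_uninduced, 55.7 and 55.4 FPKM in WT_induced and 58.1 and 37.8 FPKM in WT_uninduced. GADD45GIP1 had 102 and 44.1 FPKM in K700E_induced, 29.7 and 49.7 FPKM in K700E_uninduced, 94.4 and 137 FPKM in WT_induced and 66.4 and 8.39 FPKM in WT_uninduced.

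Of 15 translation factors and related proteins, 6 were above and 9 below 0 on K700E induction (median -0.31) and 4 above and 11 below on WT induction (median -0.39). TUFM, the mitochondrial elongation factor that delivers tRNA, had 207 and 186 FPKM in K700E_induced, against 113 and 124 FPKM in K700E_uninduced and 159 and 185 FPKM in WT_induced, against 159 and 244 FPKM in WT_uninduced. SLIRP, which with LRPPRC protects mitochondrial mRNAs, had 107 and 140.3 FPKM in K700E_induced, against 103 and 39.8 FPKM in K700E_uninduced. LRPPRC had 52.2 and 35.1 FPKM in K700E_induced, against 58.8 and 37.5 FPKM in K700E_uninduced. Chosen after their values were seen, GFM1, MTRF1 and MTIF3 are given here as well. GFM1, an elongation factor, had 15.3 and 10.4 FPKM in K700E_induced, against 54.00 and 30.5 FPKM in K700E_uninduced (log2 fold change -1.64, SE 0.51, limma adjusted p = 0.978). MTRF1, a release factor, had 0.358 and 0.0380 FPKM in K700E_induced, against 3.87 and 52.02 FPKM in K700E_uninduced (log2 fold change -4.48, SE 1.55, limma adjusted p = 0.978). Both K700E_induced values of MTRF1 are less than the 0.5 FPKM added before the log, and its K700E_uninduced replicates were far apart. MTIF3, an initiation factor, had 15.96 and 17.5 FPKM in K700E_induced and was listed at 0 in both K700E_uninduced libraries (limma adjusted p = 0.905). It had 12.1 and 69.6 FPKM in WT_induced and was listed at 0 in both WT_uninduced libraries (limma adjusted p = 0.690). Of 19 assembly factors tested, 12 were above 0 on K700E induction (median 0.19) and 8 on WT induction (median -0.23), led in level by the helicase DHX30 with 75.9 and 40.2 FPKM in K700E_induced, against 43.8 and 36.02 FPKM in K700E_uninduced. Of 11 regulators of mitochondrial biogenesis tested, 7 were above 0 on K700E induction (median 0.22) and 2 on WT induction (median -0.42). MYC had 109 and 78.7 FPKM in K700E_induced, against 218 and 137 FPKM in K700E_uninduced (log2 fold change -0.89, limma adjusted p = 1).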

How the data were processed

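Total RNA of 8 K562 libraries, depleted of ribosomal RNA, was sequenced, per the labels' protocols. The submitters' processing notes name CASAVA, TopHat, Cufflinks and hg19, with no versions or settings. The deposited values are FPKM per transcript, which the authors made with Cufflinks together with a 95% interval, and they hold no counts, so depth is known only as coverage per FPKM.

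Symbols came from the files for 33391 accessions and from the RefSeq gene table for 7065 more. FPKM of reference transcripts were summed per gene with assembled spliced transcripts of 300 nt or more that shared its introns, and scaled by median ratios over 7584 genes. All values printed are scaled, except those of unassigned fragments. Tests used limma 3.58.1 (R 4.3.3) with a mean-variance trend on log2(FPKM + 0.5), over 11383 genes with a mean of 1 FPKM or more, with all 8 libraries in the fit and Benjamini-Hochberg adjustment at 0.05. Fold changes are on that log2 scale and understate those of low genes. A transcript's share was tested as its log2 ratio to the gene's other transcripts, with 0.5 FPKM added to each side, for mean shares of 5% to 95%. Where either side is at 0, the size of the ratio depends on that addition. Named genes were the 5 lowest and 5 highest fold changes of each comparison among members above 0 in all libraries, the 3 highest and 3 lowest levels per symbol group, with the MRPS18 paralogues, MRPS30, members listed at 0, and the leading transcripts of the share test. MRPL47, MRPL9 and MRPL41 were added for an unadjusted p under 0.05, and the genes with a printed form, acceptor or promoter for that feature, after their values were seen. Members and lists were chosen with earlier results of these data known. Junction sequences come from GENCODE 29 transcripts (GRCh38). Alternatives covered pseudocount, filter, scaling, transcripts counted, libraries in the fit, the replicate block and each library left out.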

Additional observations from a re-analysis of the deposited data

How the results depend on the processing

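No mitoribosomal gene was called in any of the 19 settings run at gene level (18 for the interaction), and no mitoribosomal transcript in any of the 14 run for shares (13 for the interaction). Some settings leave the compared group means as they are and so could not turn a sign. These are the replicate block, the fit without trend, the compared groups alone and libraries left out of groups not compared. Of 940 recomputed fold changes of 50 named values, with these settings included, 930 kept their sign and 10 turned. Those were MRPL45 on K700E induction (-0.017 without K700E_uninduced replicate 2), MRPS36 and MRPS23 on WT induction (0.0061 and -0.41 with reference transcripts alone), MRPL23 on WT induction and in the interaction (-0.17 and 0.10 without WT_uninduced replicate 1), MRPL27 between the induced lines (0.38 without K700E_induced replicate 2), MRPS36 between the uninduced lines (0.48 with reference transcripts alone, 0.040 without WT_uninduced replicate 1) and MRPS36 in the interaction (-1.27 with reference transcripts alone, -0.98 without K700E_induced replicate 1). Over the libraries left out, these values ran from -0.017 to 1.54 for MRPL45, from -0.17 to 4.03 and from -4.10 to 0.10 for MRPL23 on WT induction and in the interaction, from -3.23 to 0.38 for MRPL27, and from -1.87 to 0.040 and from -0.98 to 3.77 for MRPS36 in the uninduced lines and the interaction. The cause was not tested.

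Over all genes, no filter on low values gave 28 calls for K700E induction, 13 for WT induction, 14 for the induced lines, 23 for the uninduced lines and 11 for the interaction. Reference transcripts alone gave 2, 9, 5 and 4 calls in the first 4 of these comparisons and an interaction median of -0.17 for members. A pseudocount of 0.1 gave 2 calls for K700E induction. Fitting the compared groups alone gave 0 calls for WT induction and 2 transcripts for K700E induction. Without the trend, robust limma gave 4 calls for WT induction, 6 between the induced and 6 between the uninduced lines. With each library left out in turn, calls ran from 1 to 8 for K700E induction, 0 to 11 for WT induction, 2 to 12 for the induced lines, 0 to 6 for the uninduced lines and 0 to 3 for the interaction. Member medians ran from -0.24 to 0.035, -0.15 to 0.013, -0.043 to 0.13, 0.026 to 0.38 and -0.31 to 0.10 in the same order. Transcripts called ran from 0 to 5 for K700E induction, 0 to 4 between the induced lines and 0 to 1 for the interaction. A lone library left in a group is assumed to vary like the others.

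With the replicate block, 1, 1, 2, 0 and 2 genes were called, and the member medians were -0.07, -0.08, 0.00, 0.14 and 0.04. Deviations of same-numbered libraries correlated at -0.041 to 0.097 over 8775 genes, and the labels do not say that a number marks a shared day or culture. In all 4 groups, replicate 1 had the higher MRPS sum and coverage per FPKM and the lower globin sum, and whether the numbers mark a shared batch was not tested. With FPKM and no counts, a value at 0 has no limit of detection.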
